A study of Mus musculus with 4 samples.

Results

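The mRNAs of 50 genes of mitosis and cytokinesis were followed between the cell bodies and the protrusions of mouse melanoma cells. The genes were taken by symbol from a list of mitotic kinases, spindle checkpoint, condensin, spindle and cytokinesis genes, with kinesins and centromere protein genes left out, and all 50 were found among the 16537 genes measured. The cells were YUMM1.7, an established line engineered to resemble human melanoma, among other changes by activated *Braf* and deactivated *Cdkn2a*. The labels give it as wildtype, and both fractions share these changes. Cells were grown on inserts with 1 µm pores coated on the underside with fibronectin at 30 µg/mL. Cell bodies were scraped from the top, and protrusions were lysed on the membrane afterward. Each fraction had 2 libraries, replicates 1 and 2, each from 6 inserts.

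A dividing cell condenses its chromosomes, attaches them to spindle microtubules at kinetochores, holds back until every kinetochore is attached, and then separates the sister chromatids and divides by a contractile ring. Cyclin-dependent kinase and the Aurora and Polo kinases drive these steps, and the anaphase-promoting complex (APC/C) ends them by marking cyclin B and securin for degradation. Many of the genes are transcribed together late in the cell cycle, so their mRNAs are abundant in proliferating cultures such as melanoma lines. Several of the proteins also act on microtubules or on the actin cortex.

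The libraries held 25854888 to 30994908 reads assigned to genes. In the labelled melanoma cells, 3 of 7 melanocyte markers matched the table: *Mitf* lay at 5.12 to 6.17 TPM, and *Pmel* and *Tyr* were below 1 TPM in every library, and the other 4 were not analysed here. The fibroblast markers *Pdgfra*, at 91.0 to 245 TPM, and *Col1a2*, at 376 to 530 TPM, were well above them, while the other 4 fibroblast markers were at 6.14 TPM or less. Protrusions replicate 1 stood apart in 20 liver markers, which summed to 90.8 TPM there and to between 1.60 and 4.28 TPM in the other 3 libraries. Whether this touched the division genes was not tested.

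The 50 genes were well expressed, and 37 had a negative log2 fold change in protrusions (74%, against 56.9% of all genes tested). Of these, 7 passed the test without the replicate number as a block (4.25% of all genes were lower) and 22 with it (13.3%). Their mean TPM (a share of a library's RNA corrected for gene length) was lowest for *Cit*, at 10.03, and highest for *Top2a*, at 412, with a median of 85.5 against 20.9 over all genes tested. The fewest reads behind any value were 281, for *Pttg1*. Together they made up 5962 and 6748 TPM in the cell bodies (replicates 1 and 2) and 5154 and 4987 TPM in the protrusions. The sum was thus lower in protrusions in both replicates, to 0.865 of the cell body sum in replicate 1 and 0.739 in replicate 2. In bulk fractions, fewer contributing mitotic cells and less of each mRNA per cell cannot be told apart.

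**Figure D1:**
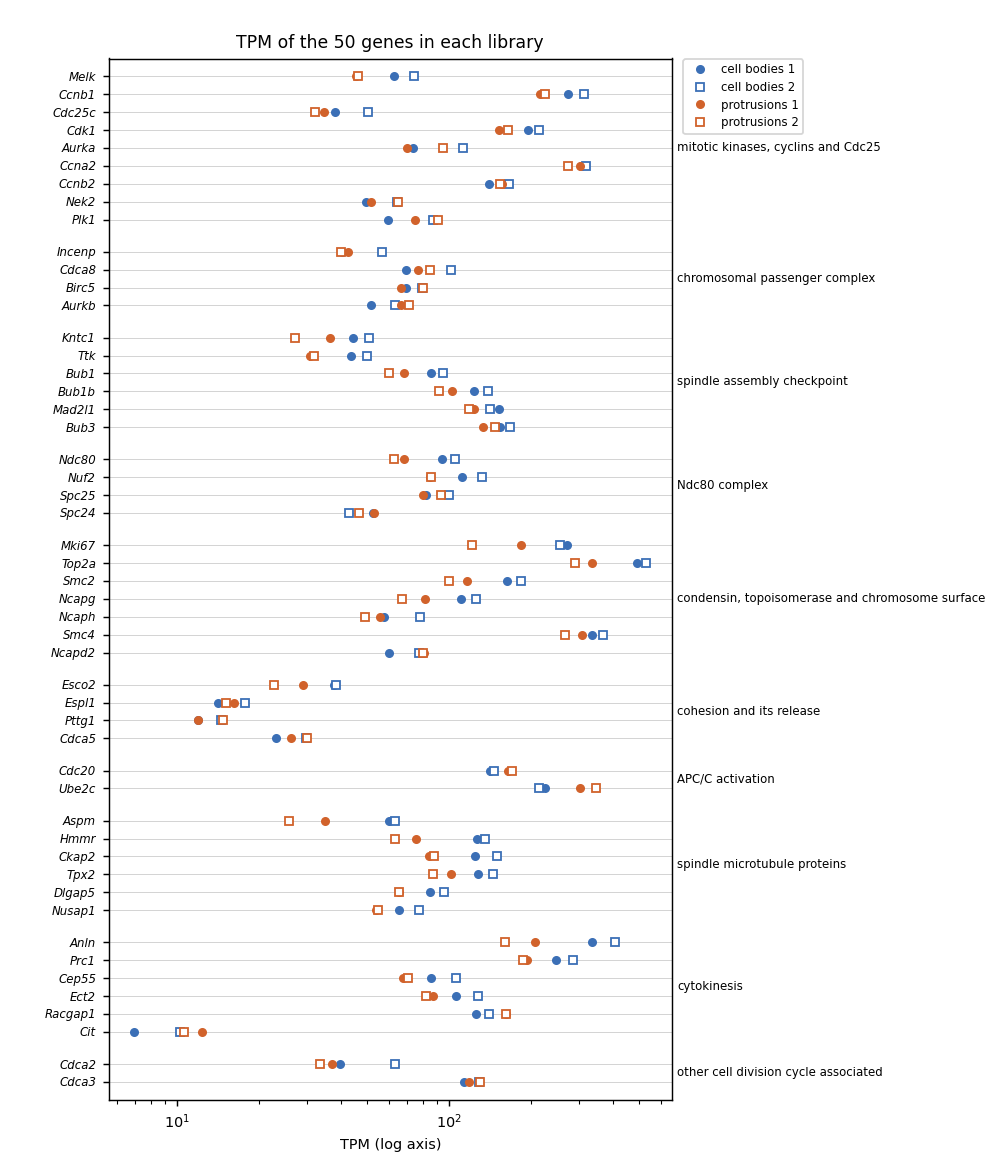
TPM of each of the 50 genes (rows, by role) in the 2 cell body libraries (blue) and the 2 protrusion libraries (orange), on a log axis, with circles for replicate 1 and squares for replicate 2. The orange marks lie left of both blue marks for 31 genes and right of both for 6, *Ube2c* among them.

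Fold changes are protrusions over cell bodies on the log2(TPM + 0.5) scale, tested with limma. The 11400 genes whose TPM averaged 1 or more entered the test, all 50 division genes among them. At an adjusted p under 0.05, 7 were lower in protrusions, *Aspm*, *Anln*, *Hmmr*, *Top2a*, *Smc2*, *Ckap2* and *Ndc80*, and 1 was higher, *Ube2c*. Of all genes tested, 4.25% were called lower and 2.99% higher. An unadjusted limma p under 0.05 was found for 27 of the 50 and for 3566 of the 11400 genes. With the replicate number as a block, 22 of the 50 were lower and 1 higher, against 13.3% and 8.08% of all genes, and the 8 first calls were kept. A voom fit on reads recovered from the TPM values called 10 of the 50 lower and 1 higher, against 7.4% and 7.68% of all genes. Both protrusion values lay below both cell body values for 31 genes, against 37% of all genes tested, and above them for 6, against 26.4%. The median log2 fold change was -0.37, against -0.07 over all genes. Only *Aspm* and *Anln* differed by at least 2-fold. The 95% confidence interval lay within a 2-fold change in either direction for 41 of the 50.

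These calls rest on 2 libraries a fraction. With 1 library left out, a fraction has a lone library, so such fits cannot show which calls would hold. The median log2 fold change of the 50 was -0.50 without the first cell body library and -0.24 without the second. Without the first protrusion library it was -0.39. The 8 called genes kept their direction in each of these fits. That was fixed beforehand, since the fractions of all 8 did not overlap.

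**Figure D2:**
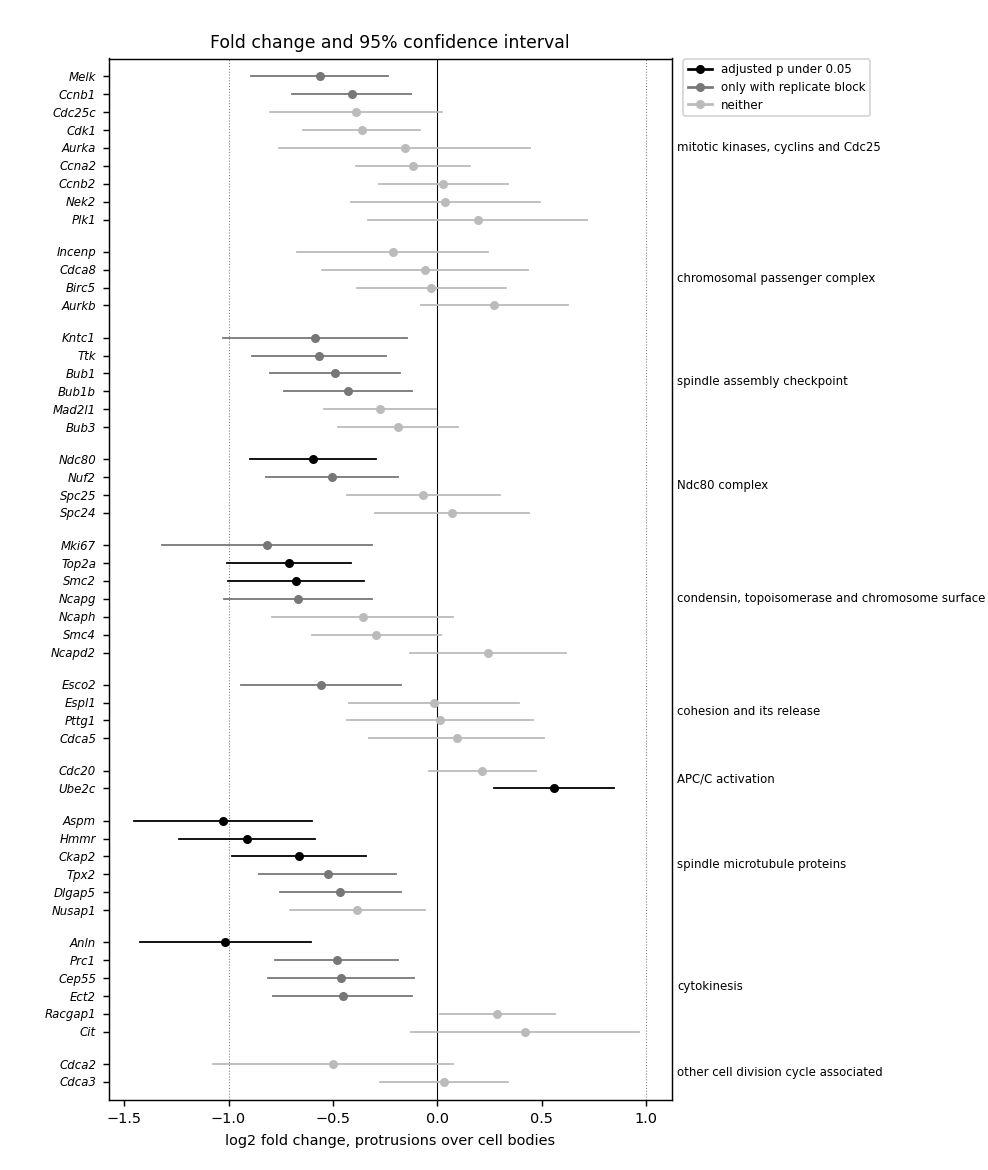
Log2 fold change of each gene, protrusions over cell bodies, with its 95% confidence interval from the limma fit without the block; dotted lines mark a 2-fold change. Black marks the 8 genes called without the block, dark grey the 15 called only with it, and light grey the other 27.

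Late cell cycle genes often carry the hexamer TTTGAA, the core of the cell cycle genes homology region, near their start. In the RefSeq promoters of GRCm38.p6, 250 bases before to 50 after the start, 40 of the 50 genes matched. The hexamer was found on either strand in 29 of the 40 (72.5%), against 20.2% of 27025 genes, and CCAAT on either strand in 28 (70%), against 41.1%. The 2 motifs can share a base where they adjoin, and they were found together in 25 of the 40 (62.5%), against 7.97% of genes. The 8 called genes are shown first, and then *Cdc20* and *Racgap1*, whose fold changes were positive, because genes on both sides carried the hexamer; it stands in capitals, and reads TTCAAA where it lies on the opposite strand. Each window is read along the gene's strand, and that of *Anln* holds a further copy, on the opposite strand, in lower case.
Aspm, chr1:139454767-139454796 (+): ggaggcgcgataTTTGAAccgagcaaaagc
Anln, chr9:22389161-22389190 (-): tgaaattcaaatTTTGAAcggccgtggtag
Hmmr, chr11:40733412-40733441 (-): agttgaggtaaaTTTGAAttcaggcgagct
Top2a, chr11:99024195-99024224 (-): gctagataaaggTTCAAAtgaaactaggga
Smc2, chr4:52439235-52439264 (+): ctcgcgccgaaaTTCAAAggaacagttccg
Ckap2, chr8:22185903-22185932 (-): gctttgttcgatTTTGAAatttctcgccgg
Ndc80, chr17:71526811-71526840 (-): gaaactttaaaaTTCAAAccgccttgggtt
Ube2c, chr2:164769888-164769917 (+): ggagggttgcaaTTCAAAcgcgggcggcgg
Cdc20, chr4:118437344-118437373 (-): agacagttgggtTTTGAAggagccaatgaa
Racgap1, chr15:99651634-99651663 (-): ctggtgcgtgatTTTGAAccggatctggcg
A match is a description of the letters, not a bound site. The median log2 fold change was -0.43 in the 29 genes with the hexamer and -0.36 in the 11 without it.

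The 6 spindle microtubule genes all had lower values in both protrusion libraries than in both cell body libraries, against 37% of all genes tested. Without the block 3 passed (50%, against 4.25% of all genes lower). *Aspm*, whose product gathers microtubule minus ends at spindle poles, lay at 60.1 and 63.4 TPM in cell bodies and at 35.1 and 25.8 TPM in protrusions. Protrusions replicate 2 was the lowest library, and the fractions did not overlap. *Aspm* was 2.04-fold lower, a log2 fold change of -1.03 ± 0.17 (SE; limma adjusted p = 0.0380). *Hmmr*, which encodes a hyaluronan receptor that also binds spindle microtubules, lay at 127 and 135.5 TPM in cell bodies and at 75.9 and 63.5 TPM in protrusions. The fractions were again separate, with a log2 fold change of -0.91 ± 0.13 (limma adjusted p = 0.0349). *Ckap2*, a microtubule-stabilizing protein of the spindle, lay at 125 and 149.7 TPM in cell bodies and at 84.3 and 88.1 TPM in protrusions. The protrusion libraries were close to each other and below both cell body libraries, with a log2 fold change of -0.66 ± 0.13 (limma adjusted p = 0.0451).

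*Tpx2* and *Dlgap5* passed only with the block. *Tpx2*, the activator that brings Aurora A to the spindle, lay at 127.7 and 145 TPM in cell bodies and at 102 and 87.7 TPM in protrusions. Its log2 fold change was -0.53 ± 0.13, with a limma adjusted p of 0.0670 without and 0.0196 with the block. *Dlgap5*, whose product stabilizes kinetochore fibers, lay at 85.1 and 95.9 TPM in cell bodies and at 65.2 and 65.4 TPM in protrusions. The fold change on the log2 scale was -0.46 ± 0.12 (limma adjusted p = 0.0679 without and 0.0269 with the block). *Nusap1*, the other gene of the group, had a log2 fold change of -0.38 and passed neither fit.

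Among the 7 genes of chromosome structure, *Top2a* and *Smc2* were lower without the block, and *Ncapg* and *Mki67* only with it. The share lower was 28.6% without and 57.1% with the block, against 4.25% and 13.3% of all genes. *Top2a*, the topoisomerase that untangles sister DNA, was the most abundant of the 50, at 491 and 531 TPM in cell bodies and at 334 and 291 TPM in protrusions. The fractions were separate by a wide margin, and the log2 fold change was -0.71 ± 0.12 (limma adjusted p = 0.0382). *Smc2*, an ATPase core subunit of condensin, lay at 163 and 183 TPM in cell bodies and at 117 and 99.8 TPM in protrusions. Both protrusion libraries were lower, with a log2 fold change of -0.68 ± 0.13 (limma adjusted p = 0.0445).

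*Mki67*, the proliferation marker that coats mitotic chromosomes, lay at 271 and 256 TPM in cell bodies and at 184 and 121 TPM in protrusions. Its 2 protrusion libraries were far apart, both below the cell bodies. The log2 fold change was -0.81 ± 0.20, with a limma adjusted p of 0.0662 without and 0.00317 with the block. *Ncapg*, a non-SMC subunit of condensin I, lay at 111 and 125 TPM in cell bodies and at 81.8 and 67.1 TPM in protrusions. The fitted log2 fold change was -0.67 ± 0.14 (limma adjusted p = 0.0511 without and 0.00828 with the block). The other condensin genes passed neither fit. Their log2 fold changes were -0.36 for *Ncaph*, -0.29 for *Smc4* and 0.24 for *Ncapd2*.

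The spindle assembly checkpoint, which delays anaphase until kinetochores are attached, had 6 genes. All had lower values in both protrusion libraries than in both cell body libraries, against 37% of all genes tested. By limma 0 passed without the block (5 at an unadjusted p under 0.05, against 3566 of 11400 genes, and 1 by voom on recovered reads). With it 4 were lower (66.7%, against 13.3% of all genes). *Kntc1*, which encodes the Rod subunit of the kinetochore complex that recruits dynein, lay at 44.4 and 50.7 TPM in cell bodies and at 36.5 and 27.1 TPM in protrusions. Its log2 fold change was -0.59 ± 0.18 (limma adjusted p = 0.0934 without and 0.0295 with the block). *Ttk*, the Mps1 kinase that starts the checkpoint signal, lay at 43.5 and 50.03 TPM in cell bodies and at 30.7 and 31.9 TPM in protrusions. The fold change on the log2 scale was -0.57 ± 0.13 (limma adjusted p = 0.0564 without and 0.0165 with the block).

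The checkpoint kinase gene *Bub1* lay at 85.8 and 94.8 TPM in cell bodies and at 68.1 and 60.3 TPM in protrusions. The fitted log2 fold change was -0.49 ± 0.13 (limma adjusted p = 0.0689 without and 0.0263 with the block). *Bub1b*, which encodes the APC/C inhibitor BubR1, lay at 123.5 and 139 TPM in cell bodies and at 103 and 91.9 TPM in protrusions, with a log2 fold change of -0.43 ± 0.12 (limma adjusted p = 0.0865 without and 0.0406 with the block). As in the other checkpoint genes, neither protrusion library reached the cell bodies. *Bub3*, which carries both kinases to kinetochores, was the most abundant checkpoint gene, at 154 and 167 TPM in cell bodies and at 134 and 148 TPM in protrusions. Its log2 fold change was -0.19 ± 0.12 and that of *Mad2l1*, the Mad2 gene, was -0.27. Neither passed a fit.

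Within the Ndc80 complex, the 4-subunit link between kinetochore and microtubule, the values split by subunit pair. *Ndc80*, also named Hec1, lay at 94.1 and 105 TPM in cell bodies and at 68.5 and 62.7 TPM in protrusions. The fractions were separate, with a log2 fold change of -0.60 ± 0.12 (limma adjusted p = 0.0477). Its partner *Nuf2* lay at 111 and 132.5 TPM in cell bodies and at 84.8 and 86.0 TPM in protrusions, with a log2 fold change of -0.51 ± 0.13 (limma adjusted p = 0.0671 without and 0.0176 with the block). *Spc24* and *Spc25*, the pair on the kinetochore side, had overlapping fractions and log2 fold changes of 0.07 and -0.07, which passed neither fit. The difference between the pairs was not tested.

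For the 9 genes of mitotic kinases, cyclins and Cdc25 the median log2 fold change was -0.16. By limma 0 passed without the block (3 at an unadjusted p under 0.05, against 3566 of 11400 genes, and 0 by voom). With it 2 were lower (22.2%, against 13.3% of all genes). *Melk*, a kinase of the AMPK family that peaks in mitosis, lay at 62.5 and 74.2 TPM in cell bodies and at 45.6 and 46.2 TPM in protrusions. The fold change on the log2 scale was -0.56 ± 0.13 (limma adjusted p = 0.0585 without and 0.0145 with the block). *Ccnb1*, the cyclin B1 partner of Cdk1, lay at 274 and 312 TPM in cell bodies and at 215 and 225 TPM in protrusions, with a log2 fold change of -0.41 ± 0.12 (limma adjusted p = 0.0812 without and 0.0321 with the block). Both genes were lower in each protrusion library than in any cell body library.

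The most abundant gene of this group, *Ccna2* (cyclin A2), lay at 305 and 320 TPM in cell bodies and at 304 and 274 TPM in protrusions. Replicate 1 was nearly level between the fractions, and the log2 fold change was -0.12 ± 0.11 (limma adjusted p = 0.517). The other 6 genes ran from -0.39 for *Cdc25c*, the phosphatase that activates Cdk1, to 0.19 for the Polo kinase gene *Plk1*, with *Cdk1* at -0.36, *Aurka* at -0.16, *Ccnb2* at 0.03 and *Nek2* at 0.04. None of these passed a fit.

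The chromosomal passenger complex, in which *Aurkb* encodes the kinase, *Incenp* the scaffold and *Birc5* and *Cdca8* the targeting subunits survivin and borealin, had no call in either limma fit or by voom, and 0 of its 4 genes had an unadjusted p under 0.05. *Cdca8* lay at 69.2 and 102 TPM in cell bodies and at 76.6 and 85.1 TPM in protrusions. The 2 cell body libraries enclosed both protrusion libraries, and the log2 fold change of -0.06 ± 0.20 had a 95% interval from -0.55 to 0.44. The other 3 ran from -0.21 for *Incenp* to 0.27 for *Aurkb*, whose protrusion values both exceeded those of the cell bodies.

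*Ube2c* was the only gene of the 50 called higher in protrusions by limma, with or without the block. It encodes the ubiquitin-conjugating enzyme that starts chains on APC/C substrates, and lay at 225 and 215 TPM in cell bodies and at 302 and 347 TPM in protrusions. Both protrusion libraries were above both cell body libraries, 1.47-fold on average, with a log2 fold change of 0.56 ± 0.12 (limma adjusted p = 0.0487). After centring each library on its median, *Ube2c* had a limma adjusted p of 0.0534 and was not called. Of the 50, 8 were then called lower and 0 higher, against 567 and 493 of all 11400 genes. *Cdc20*, the APC/C activator and the only other gene of this group, had a log2 fold change of 0.21 ± 0.10 (limma adjusted p = 0.219).

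The cohesion group had 0 limma calls without the block (1 gene at an unadjusted p under 0.05, against 3566 of 11400 genes, and 0 by voom). With it 1 gene was lower (25%, against 13.3% of all genes). *Esco2*, the acetyltransferase that establishes cohesion between sister chromatids, lay at 37.9 and 38.4 TPM in cell bodies and at 29.0 and 22.8 TPM in protrusions. The fitted log2 fold change was -0.56 ± 0.16 (limma adjusted p = 0.0792 without and 0.0263 with the block). *Espl1* (separase), *Pttg1* (securin) and *Cdca5* (sororin) had log2 fold changes of -0.02, 0.01 and 0.09, and the fractions of each overlapped.

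The 6 cytokinesis genes held both large negative and positive values. *Anln*, whose product anillin ties actin, myosin and septins at the cleavage furrow, lay at 335 and 407 TPM in cell bodies and at 207 and 161 TPM in protrusions. No other gene of the 50 but *Aspm* differed as much, with a log2 fold change of -1.02 ± 0.17, or 2.02-fold lower (limma adjusted p = 0.0367). *Prc1*, which bundles antiparallel microtubules of the central spindle, lay at 247 and 286 TPM in cell bodies and at 193.5 and 187 TPM in protrusions. The fractions were separate, with a log2 fold change of -0.48 ± 0.12 (limma adjusted p = 0.0639 without and 0.0190 with the block).

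*Cep55*, the midbody protein that recruits the abscission machinery, lay at 85.6 and 106 TPM in cell bodies and at 67.5 and 70.7 TPM in protrusions. Its log2 fold change was -0.46 ± 0.14 (limma adjusted p = 0.0941 without and 0.0290 with the block). *Ect2*, the exchange factor that switches on RhoA at the equator, lay at 106 and 128 TPM in cell bodies and at 87.4 and 82.1 TPM in protrusions, with a log2 fold change of -0.45 ± 0.13 (limma adjusted p = 0.0893 without and 0.0352 with the block). In both genes the protrusion libraries were the 2 lowest.

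*Racgap1* and *Cit* had higher values in both protrusion libraries but did not pass either fit. *Racgap1*, the centralspindlin subunit that binds Ect2, lay at 125.5 and 139.9 TPM in cell bodies and at 162 and 162 TPM in protrusions. The fold change on the log2 scale was 0.29 ± 0.11 (limma adjusted p = 0.149). *Cit*, which encodes citron kinase, lay at 6.96 and 10.2 TPM in cell bodies and at 12.4 and 10.6 TPM in protrusions, and most of its difference came from replicate 1. The fitted log2 fold change was 0.42 ± 0.22 (limma adjusted p = 0.252).

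Of the last pair, *Cdca3*, which serves the degradation of Wee1, lay at 113 and 129 TPM in cell bodies and at 118 and 129.9 TPM in protrusions. The values followed the replicate rather than the fraction, with a log2 fold change of 0.03 ± 0.12 (limma adjusted p = 0.890). *Cdca2*, a phosphatase-targeting subunit on anaphase chromatin, had a log2 fold change of -0.50 ± 0.23, which passed neither fit.

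The 2 replicates gave the same sign for most of the 50 genes and a larger difference in replicate 2. Taken replicate by replicate, 33 genes were lower and 12 higher in both, and 5 were mixed. The median log2 fold change was -0.23 in replicate 1 and -0.50 in replicate 2, against 0.00 and -0.14 over all genes tested. In the cell bodies 46 of the 50 were higher in replicate 2 than in replicate 1, against 61.9% of all genes, while in the protrusions 23 were, against 36.9%. The median log2 change from replicate 1 to replicate 2 was 0.20 in cell bodies and -0.04 in protrusions, against 0.08 and -0.07 over all genes. The genes differed in this. In the 3 largest negative fold changes the protrusions moved more, at 0.08 and -0.44 for *Aspm*, 0.28 and -0.36 for *Anln*, and 0.09 and -0.26 for *Hmmr*. In *Ckap2* the cell bodies did, at 0.26 and 0.06.

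**Figure D3:**
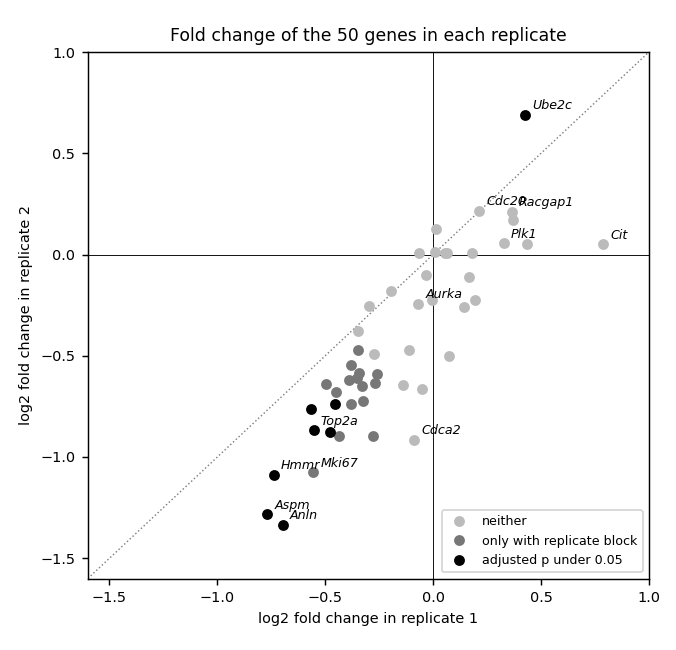
Log2 fold change, protrusions over cell bodies, of each of the 50 genes in replicate 1 (x axis) and replicate 2 (y axis), shaded by call as in the plot of fold changes by role, with a dotted line of equal values. Most points lie below the dotted line and left of zero, *Ube2c* lies furthest toward the upper right, and *Cit* and *Cdca2* lie far from the line.

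Further genes of cell division were counted in the same way. Of 105 further mitosis genes, all of which were tested, 6 were lower (5.71%) and 4 higher (3.81%), against 4.25% and 2.99% of all genes. With the block 19 were lower (18.1%) and 10 higher (9.52%), against 13.3% and 8.08% of all genes. Their median log2 fold change was -0.17. *Spdl1*, which recruits dynein to kinetochores, lay at 60.1 and 65.6 TPM in cell bodies and at 35.4 and 31.0 TPM in protrusions (log2 fold change -0.91, limma adjusted p = 0.0349). The other genes called lower included the kinetochore gene *Casc5* (-0.86), *Smc1a* (-0.90) of cohesin and *Sgol2* (-0.71), which protects it, and the augmin gene *Haus3* (-0.63). Those called higher were the cytokinesis genes *Sept9* (0.78), *Pdcd6ip* (0.73) and *Arhgap11a* (0.69) and the transcription factor gene *Foxm1* (0.78). The lists left out of the 50 by their definition were the kinesins and the centromere proteins. Of 13 kinesins 2 (15.4%) were lower, *Kif18a* and *Kif20b*, and 6 (46.2%) with the block, with a median log2 fold change of -0.41. Of 16 centromere proteins 2 (12.5%) were lower, *Cenpe* and *Cenpf*, and 4 (25%) with the block, with a median of -0.30.

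Among 41 genes of DNA replication and nucleotide supply, which act earlier in the cell cycle, 1 (2.44%) was lower, *Rrm1*, against 4.25% of all genes. With the block 6 were lower (14.6%) and 1 higher (2.44%), against 13.3% and 8.08% of all genes. The median log2 fold change of these genes was -0.18. Of 17 G1 cyclins and inhibitors 0 passed limma without the block (5 at an unadjusted p under 0.05, against 3566 of 11400 genes, and 3 by voom). With the block 4 passed, 1 lower (5.88%) and 3 higher (17.6%), and the median log2 fold change was 0.12. The differences between these lists were not tested.

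**Figure D4:**
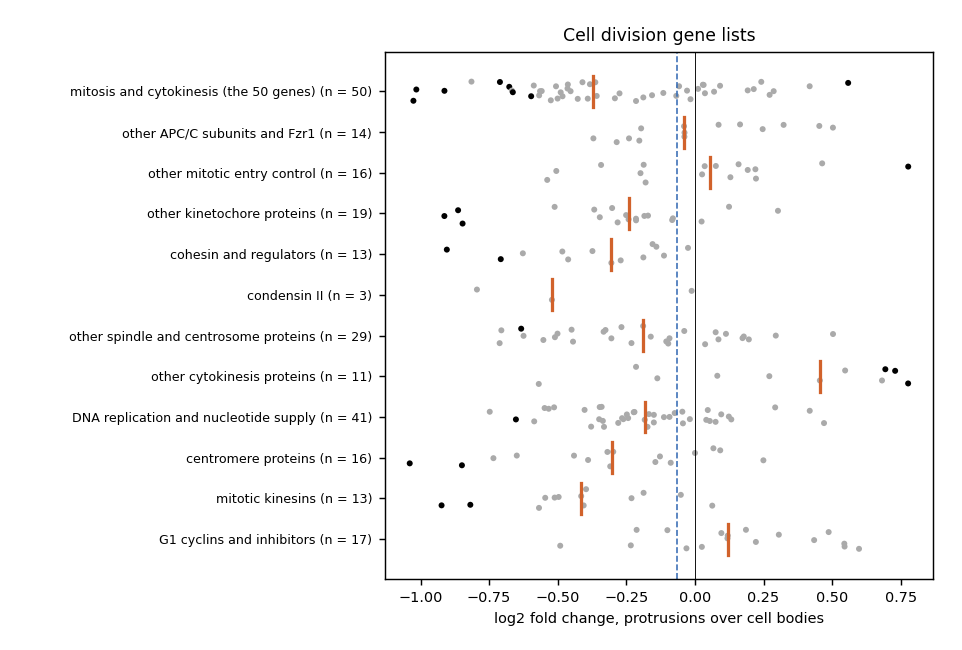
Log2 fold changes, protrusions over cell bodies, of the 50 genes and of other cell division lists, 1 point per gene, black where called without the block, with orange bars for list medians and a dashed line at the median of all genes tested, -0.07. The 50 genes and the kinesins have medians of -0.37 and -0.41, and other cytokinesis proteins one of 0.46.

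The fold changes followed the base composition of the transcripts. Across the 50 genes the log2 fold change correlated with transcript GC content at a Spearman rho of 0.74 (Pearson r = 0.71), and across 11326 genes at 0.39 (0.36). These are descriptions across genes that share 4 libraries. The median log2 fold change of the 17 genes under 45% GC was -0.56, none being positive, against a median of -0.28 for all genes in that range. From 45% to 50% the 15 genes had a median of -0.46 against -0.14, and from 50% to 55% the 13 genes had 0.04 against 0.00. The 5 genes at 55% or more had a median of 0.19 against 0.16. Longer coding sequences went with lower values, at a Spearman rho of -0.54 across the 50 genes and -0.13 across 10559.

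After a correction of each library for GC content, the median of the 50 was -0.18 and that of all genes 0.00. *Aspm* (-0.81), *Anln* (-0.82) and *Hmmr* (-0.63) were then still lower, each with a limma adjusted p of 0.0433, and no gene of the 50 was called higher, against 3.74% of all genes lower and 3.1% higher. With the block as well, 10 of the 50 were lower and *Ube2c* was higher, against 14.2% and 12.2% of all genes. Within the 50 genes the corrected values still correlated with GC content, at a Spearman rho of 0.49. The part of base composition in the fold changes was not tested beyond this correction.

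**Figure D5:**
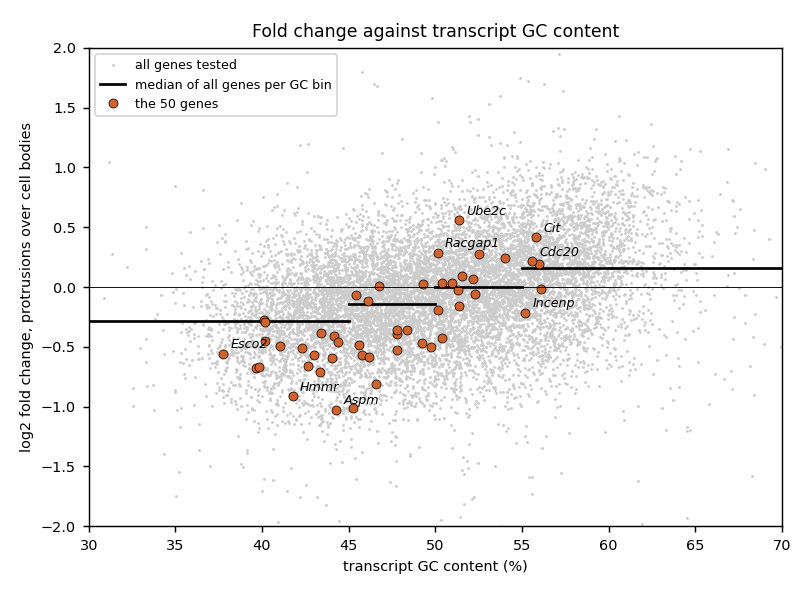
Log2 fold change, protrusions over cell bodies, against transcript GC content for all genes tested (grey; fold changes beyond 2 are not drawn) and the 50 genes (orange), with black bars for the median of all genes in 4 ranges of GC content. The 17 orange points under 45% all lie below zero.

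GA-rich stretches of the 3′ UTR take part in moving some mRNAs to protrusions. A window of 30 bases with at least 27 purines, 9 to 21 of them G, was found in 1 of 48 of the genes with a 3′ UTR, *Mad2l1*, against 9.82% of 10357 genes tested. A longer 3′ UTR offers more windows, and these shares were not adjusted for length. The median 3′ UTR was 543.5 bases in the 50 genes and 970 over all genes tested, and that of *Mad2l1* was 6802 bases.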

How the data were processed

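YUMM1.7 cell bodies and protrusions were sequenced, with 2 libraries each, grouped by the labels. The authors deposited 1 table of TPM per gene from stranded, rRNA-depleted total RNA aligned to mm10. For alignment and counting the paper's methods give TopHat, whereas STAR and featureCounts stand in the submitters' processing notes, and both give edgeR. The authors also deposited their own comparison (log2 fold change, p-value, FDR and a likelihood ratio score), which was not used, and a mean log2 CPM, which served only to scale recovered reads.

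Here limma 3.58.1 under R 4.3.3 was run on log2(TPM + 0.5), letting the prior variance follow the level of a gene. Tests were two-sided, with Benjamini-Hochberg adjustment over the 11400 genes that averaged 1 TPM or more. The added 0.5 shrinks the fold changes of low genes. Whole reads, recovered from ratios of TPM for all 16537 genes within 0.001 reads, gave depth and a voom fit with TMM factors, which called 10 of the 50 genes lower and 1 higher (844 and 876 of all genes). On simulated data the fits without a minimum on reads made nearly all false calls in genes averaging under 50 reads, and those with that minimum still made somewhat more false calls than the nominal share. Such genes number 749 here and hold 41 of the calls without the block and 140 of those with it, and none is among the 50.

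A heading in the study's supplementary material pairs the fractions by replicate, and deviations from group means correlated at 0.447 within a number, so the number was taken to pair the samples. The labels call the replicates biological without giving their origin, so p-values measure the spread between these samples.

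GC content and lengths came from the GENCODE coding transcript of GRCm38 with the longest coding sequence, with 16373 genes matched. The members and lists were chosen with earlier results of these data known, and the promoter motifs, the GA-rich window and the minimum of 50 reads after the values were seen. Values in every library are given for genes called in either fit, the most abundant gene of each role and the 3 largest differences in each direction. Protein motifs were not analysed here, and 1 gene counted among the other mitosis genes is not reported here by name.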

Additional observations from a re-analysis of the deposited data

How the results depend on the processing

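Leaving out 1 library gave 0 to 2 of the 50 genes lower and 0 higher (19 to 29 at an unadjusted limma p under 0.05), 0 to 1 of the other mitosis genes lower and 0 higher, and 0 to 144 of all genes lower and 0 to 14 higher; the lone library of a fraction was assumed to vary like the others. Without a minimum on TPM limma called 0 genes of any list (27 of the 50, 38 other mitosis genes and 3630 of all genes at an unadjusted p under 0.05). A mean TPM of at least 5 gave 13 lower, with 11 other mitosis genes lower and 8 higher and 801 of all genes lower, and a mean of at least 50 reads gave 11 lower, 11 and 7, and 732. The replicate block gave 22 lower, 19 other mitosis genes lower and 10 higher, and 1513 of all genes lower and 921 higher; with at least 50 reads it gave 26, 26 and 10, and 2006 and 1263. A pseudocount of 0.1, median centring and the GC correction each left 0 of the 50 higher. The GC correction gave 3 lower, a median of -0.18 and 2 other mitosis genes lower, and with the block a median of -0.18, 14 other mitosis genes lower and 11 higher, and 1605 of all genes lower and 1383 higher. Voom on the recovered reads gave 10 other mitosis genes lower and 10 higher, and 844 of all genes lower and 876 higher. Voom with the block, added after seeing the data, gave 21 of the 50 lower and 3 higher (*Ube2c*, *Cit* and *Racgap1*), 23 other mitosis genes lower and 13 higher, and 1924 of all genes lower and 1956 higher. Among the 29 genes given with values in every library, signs turned for *Cdca8* (0.022 with median centring, 0.027 with voom, 0.023 with voom and the block, and -0.34 to 0.22 when 1 library was left out), *Ccna2* (0.064 with the GC correction, with and without the block) and *Cdca3* (-0.062 to 0.13 when 1 library was left out), none of which was called. Over all 50, the GC correction left 18 positive fold changes against 13. Apart from fewer genes or libraries entering a fit, the cause was not tested. The count models edgeR and DESeq2 were not run, and the recovered reads were tested with voom only.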

Other observations

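Other cytokinesis genes were counted as a further list. Of 11 tested, 3 were higher in protrusions (27.3%) and 0 lower by limma, against 2.99% and 4.25% of all genes. With the replicate block 6 were higher (54.5%) and 0 lower, against 8.08% and 13.3% of all genes. An unadjusted limma p under 0.05 was found for 7 of the 11, against 3566 of 11400 genes, and voom called 6. A negative log2 fold change was found for 3, and the median was 0.46. The difference from *Anln* was not tested. *Sept9*, a septin that acts in abscission, lay at 166 and 160.2 TPM in cell bodies and at 272 and 288 TPM in protrusions, a log2 fold change of 0.78. *Pdcd6ip*, the Alix gene of abscission, lay at 42.1 and 39.4 TPM in cell bodies and at 70.2 and 65.5 TPM in protrusions, a log2 fold change of 0.73. *Arhgap11a*, a RhoA regulator, lay at 53.6 and 61.2 TPM in cell bodies and at 86.7 and 99.7 TPM in protrusions, a log2 fold change of 0.69. The protrusion libraries were the 2 highest for each. *Iqgap3*, at 23.9 and 34.0 TPM in cell bodies and at 21.8 and 16.6 TPM in protrusions, had a log2 fold change of -0.57 that passed neither fit. *Foxm1*, the transcription factor of many mitotic genes, lay at 31.4 and 32.2 TPM in cell bodies and at 54.0 and 55.7 TPM in protrusions, a log2 fold change of 0.78 (limma adjusted p = 0.0349), on the other side from most of the 50 genes.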
